A study of Mus musculus with 8 samples.

Results

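The disease-associated microglia genes Spp1, Igf1, Clec7a, Itgax, Gpnmb, Cst7, Cd68, Apoe, Lpl and Fabp5 were examined in RNA-seq of mouse brain. These 10 genes were matched by symbol among the 54532 genes listed, were found in the tables of both RNA-seq experiments, and all 10 had enough counts to be tested in each comparison. The study compared poststroke anxiety with generalized anxiety and asked what an HDAC3 inhibitor changes in the poststroke model. Libraries came from male C57BL/6 mice on Day 21, and the labels and methods used here do not give the age of the mice whose RNA was sequenced. The PTS + RS group had a photothrombotic stroke of the cortex and restraint stress, and its damaged cortex was taken, whereas the RS group had restraint stress without stroke (2 libraries each, labelled cortex). In the other experiment, mice with stroke and restraint stress were given RGFP109 subcutaneously, 60 mg/kg once per day, or vehicle, which the sample titles call NaCl (2 libraries each). The course is given as 2 weeks in some passages of the study and as longer in another. RGFP109 is a benzamide inhibitor of class I histone deacetylases, the enzymes that remove acetyl groups from histones, and acts mainly on HDAC1 and HDAC3. Replicate 1 of the RGFP109 and vehicle groups is labelled cortex and replicate 2 is labelled amygdala, so the pair of libraries of a treatment are not replicates of one tissue. The methods speak of pooled and barcoded samples without saying whether tissue or libraries were pooled, so it is not known whether a library holds a single mouse, and p-values measure only the spread between these libraries, which may be technical.

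Microglia, the resident macrophages of the brain, change their gene expression around damaged, demyelinated or amyloid-laden tissue. In this disease-associated state the receptor Trem2 and its adaptor Tyrobp sense lipids and debris, genes of phagocytosis, lysosomes and lipid handling are raised, and the so-called homeostatic genes such as P2ry12 and Tmem119 are lowered. The genes examined here cover secreted factors (Spp1, which encodes osteopontin, and Igf1), surface proteins (Clec7a, which encodes the beta-glucan receptor Dectin-1, Itgax, which encodes the integrin subunit CD11c, and the transmembrane glycoprotein gene Gpnmb), lysosomal proteins (the cystatin gene Cst7 and Cd68) and lipid handling (Apoe, Lpl and Fabp5). Several are not restricted to microglia: astrocytes make Apoe, and Igf1, Lpl and Fabp5 are also made by other brain cells.

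The libraries held between 15902013 and 21712033 counts on genes. Marker lists separated some libraries from others of the same label. Vehicle replicate 1, labelled cortex, had a summed level of 8 olfactory bulb markers of 1230 CPM (read counts scaled to the normalized library size), against 11.6 to 21.3 CPM in the other 7 libraries, with Cdhr1, a cadherin of mitral cells, at 534 CPM and Th, the dopamine-synthesizing enzyme, at 184 CPM. Both libraries labelled amygdala had summed levels of 8 striatum markers of 1019 and 1160 CPM, against 83.5 to 207 CPM in the others, whereas 8 amygdala markers summed to 125 and 131 CPM there and to 131 to 143 CPM in the cortex-labelled libraries other than vehicle replicate 1, which was at 42.7 CPM. The 8 cerebral cortex markers summed to 1300 to 2012 CPM in all 8 libraries, lowest in vehicle replicate 1. Choroid plexus markers, 8 genes led by Ttr, summed to 1638 and 49.4 CPM in the PTS + RS libraries, to 1844 and 3831 CPM in the RS libraries, to 1520 and 14.8 CPM with RGFP109 and to 9.61 and 15.7 CPM with vehicle. Some fitted differences that rest on vehicle replicate 1 are also given without it. Ratios within replicate 1, and medians of gene lists in comparisons that use this library, are given only with it.

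The promoters of 6 of the 10 genes are shown because these are the genes whose difference between PTS + RS and RS exceeded the median of 12 microglial content genes, as described further on. Each window runs from 250 bases before to 50 bases after the RefSeq start site on GRCm38.p6, and 8 of the 10 genes had such a window (Lpl and Fabp5 did not). The windows are Cst7 at chr2:150570165-150570464 (plus strand), Spp1 at chr5:104434861-104435160 (plus), Gpnmb at chr6:49036268-49036567 (plus), Clec7a at chr6:129472730-129473029 (minus), Itgax at chr7:128129300-128129599 (plus) and Cd68 at chr11:69666121-69666420 (minus). Sequences run 5′ to 3′ on the strand of the gene. Capitals mark the letters TGANTCA (N is any base), a loose form of the core of sites for AP-1 factors such as Jun and Fos. They also mark GAGGAA on either strand, the core of many sites for the ETS factor PU.1, which is encoded by Spi1.
Cst7: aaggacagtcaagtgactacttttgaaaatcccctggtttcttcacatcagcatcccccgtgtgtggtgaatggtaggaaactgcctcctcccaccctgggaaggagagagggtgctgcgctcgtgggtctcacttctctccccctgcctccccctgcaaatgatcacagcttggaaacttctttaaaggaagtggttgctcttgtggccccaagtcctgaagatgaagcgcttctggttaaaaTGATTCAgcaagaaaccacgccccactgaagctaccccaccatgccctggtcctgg
Spp1: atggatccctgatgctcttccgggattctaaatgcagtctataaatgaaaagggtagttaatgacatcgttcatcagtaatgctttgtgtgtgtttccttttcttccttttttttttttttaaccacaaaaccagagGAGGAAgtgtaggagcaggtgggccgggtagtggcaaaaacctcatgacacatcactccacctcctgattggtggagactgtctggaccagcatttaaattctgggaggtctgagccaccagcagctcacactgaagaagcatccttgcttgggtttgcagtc
Gpnmb: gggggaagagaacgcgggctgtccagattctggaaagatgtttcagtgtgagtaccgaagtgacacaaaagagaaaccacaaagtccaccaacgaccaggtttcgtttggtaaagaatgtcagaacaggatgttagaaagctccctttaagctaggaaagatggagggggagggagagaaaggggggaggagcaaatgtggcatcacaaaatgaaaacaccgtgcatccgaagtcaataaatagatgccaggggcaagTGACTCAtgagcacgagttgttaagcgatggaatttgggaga
Clec7a: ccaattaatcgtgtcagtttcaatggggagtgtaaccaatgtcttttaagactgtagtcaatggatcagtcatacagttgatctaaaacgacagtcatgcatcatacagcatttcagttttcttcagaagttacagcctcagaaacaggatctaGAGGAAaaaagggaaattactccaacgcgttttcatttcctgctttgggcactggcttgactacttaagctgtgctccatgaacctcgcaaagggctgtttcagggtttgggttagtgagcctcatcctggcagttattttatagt
Itgax: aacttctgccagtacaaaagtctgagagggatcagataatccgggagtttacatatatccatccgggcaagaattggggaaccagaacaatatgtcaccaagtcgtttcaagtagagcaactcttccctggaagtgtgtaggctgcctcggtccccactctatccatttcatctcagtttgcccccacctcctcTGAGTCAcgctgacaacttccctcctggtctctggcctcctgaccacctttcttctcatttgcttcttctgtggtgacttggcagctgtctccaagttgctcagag
Cd68: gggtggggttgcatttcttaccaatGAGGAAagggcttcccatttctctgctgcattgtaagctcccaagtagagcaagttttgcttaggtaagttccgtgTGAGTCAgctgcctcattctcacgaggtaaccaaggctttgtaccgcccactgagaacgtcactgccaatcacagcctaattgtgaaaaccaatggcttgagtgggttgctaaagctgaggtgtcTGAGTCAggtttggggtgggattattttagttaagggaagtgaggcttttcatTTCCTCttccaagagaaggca

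TGANTCA was found once in Cst7, beginning at -6 from the start site (the first transcribed base is 1), once in Gpnmb at 9, once in Itgax at -56 and in Cd68 at -149 and -24. With Igf1, 5 of the 8 genes with a window held it. The 8 genes have 12 windows, since some have several start sites, and 5 of the 12 windows held TGANTCA, against 7.81% of all 32851 windows in the RefSeq table. The matched letters were TGATTCA in Cst7 and TGAATCA in Igf1, and TGACTCA or TGAGTCA in the other genes that held it. GAGGAA was also found in 5 of the 8 genes (Spp1 at -113, Clec7a at -96, Apoe, Igf1 and Cd68) and in 7 of the 12 windows, against 28.3% of all windows. The Clec7a windows from 129472730 and from 129472736 overlap and hold the same GAGGAA, which is counted in both. The E-box CACGTG, a core bound by Mitf, Tfeb and Tfe3, was in 0 of the 12 windows and in 7.15% of all windows. These motifs were searched on both strands and do not overlap each other in the windows shown. A match describes letters in a window and was not tested as a binding site.

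How these genes differ with stroke in mice under restraint stress was asked by comparing PTS + RS with RS. No library came from mice without restraint stress, so the response to restraint stress itself was not measured. The osteopontin gene Spp1 and the receptor and lysosomal genes Clec7a and Cst7 differed most between the groups. Of the 10 genes, 9 were upregulated in the PTS + RS group, with folds from 2.12 for Apoe to 62.6 for Clec7a and a still higher ratio for Cst7, and Fabp5 was not past the threshold. The threshold was an adjusted p under 0.05, by the quasi-likelihood test of edgeR after Benjamini-Hochberg correction across 17581 tested genes, together with a log2 fold change of 1 or more in either direction. Across all tested genes, 2.12% were upregulated by the same rule. In all 10 genes both PTS + RS libraries lay above both RS libraries, which held for 25.7% of all tested genes. The median log2 fold change of the 10 genes was 3.69, against -0.0015 over all tested genes. In bulk tissue a larger number of cells of a type and more RNA per cell cannot be told apart.

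**Figure D1:**
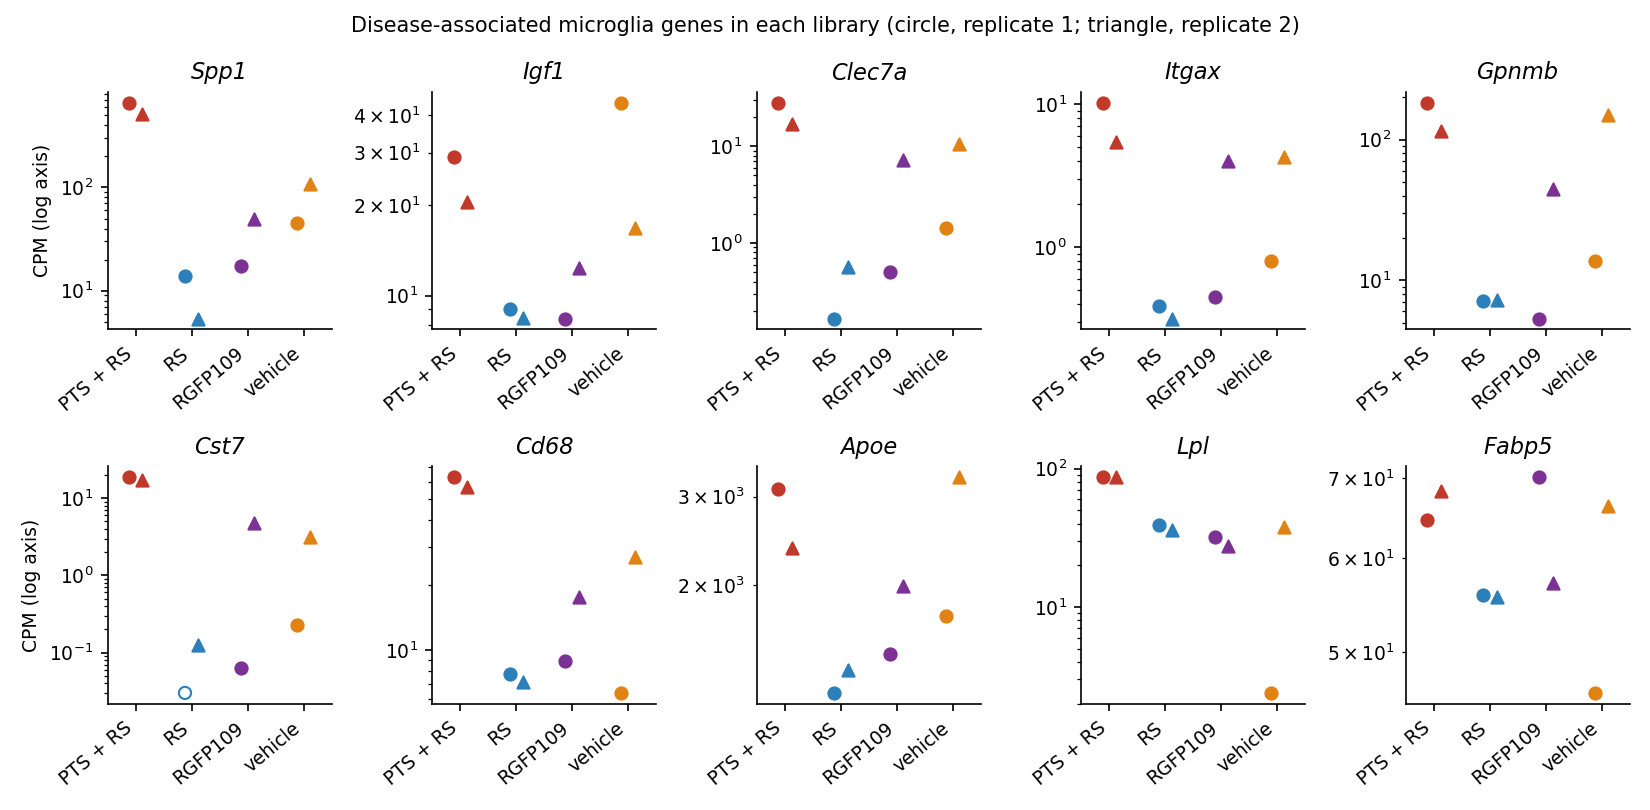
Levels of the 10 disease-associated microglia genes in each of the 8 libraries, in CPM on a log axis with its own range in each panel. Circles are replicate 1 and triangles are replicate 2 of each group, and the open circle for Cst7 stands for 0 counts, drawn at the foot of the axis. Both PTS + RS libraries (red) lie above both RS libraries (blue) in every panel, and Igf1 and Lpl in vehicle replicate 1 lie at 44.0 and 2.39 CPM, outside the range of the other 7 libraries.

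Among the secreted factors, Spp1 (ENSMUSG00000029304, chromosome 5 from 104435118 to 104441050) was at 661 and 517 CPM in the PTS + RS libraries and at 13.96 and 5.36 CPM in the RS libraries. The lowest PTS + RS library was far above the highest RS library. Its log2 fold change was 5.91 (SE, the standard error, 0.367; edgeR adjusted p = 0.000572). Osteopontin is a matrix-associated cytokine that binds integrins and Cd44. Igf1 (ENSMUSG00000020053, chromosome 10 from 87858265 to 87937042), a growth factor for neurons and oligodendrocytes, was at 29.0 and 20.6 CPM with stroke and at 9.05 and 8.39 CPM without. The groups did not overlap, and the log2 fold change was 1.51 (SE 0.192, edgeR adjusted p = 0.00839). Each of these loci overlaps a listed noncoding gene, Gm42793 on the strand of Spp1 and Igf1os opposite to Igf1, so a share of their reads could be assigned differently.

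Of the surface protein genes, Clec7a and Itgax were under 1 CPM in both RS libraries. Clec7a (ENSMUSG00000079293, chromosome 6 from 129461591 to 129472779), whose product recognizes fungal glucans and signals through Syk and Card9, was at 28.1 and 17.2 CPM in the PTS + RS libraries and at 0.166 and 0.568 CPM in the RS libraries, which is 3 and 9 counts. The deposited annotation calls this gene a polymorphic pseudogene. The groups were separate and the log2 fold change was 5.97 (SE 0.449, edgeR adjusted p = 0.00112). Itgax (ENSMUSG00000030789, chromosome 7 from 128129547 to 128150657) was at 10.2 and 5.45 CPM against 0.386 and 0.316 CPM. Both stroke libraries were higher, and replicate 1 was well above replicate 2. Its log2 fold change was 4.44 (SE 0.454, edgeR adjusted p = 0.00346). Gpnmb (ENSMUSG00000029816, chromosome 6 from 49036546 to 49070929), a glycoprotein of lysosomes and the cell surface in lipid-laden macrophages, was at 183 and 116 CPM against 7.12 and 7.19 CPM. The RS libraries were almost equal and well below, with a log2 fold change of 4.38 (SE 0.237, edgeR adjusted p = 0.000376).

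Cst7 (ENSMUSG00000068129, chromosome 2 from 150570415 to 150578944), which encodes cystatin F, an inhibitor of lysosomal cysteine cathepsins, was at 18.8 and 17.4 CPM in the PTS + RS libraries and at 0 and 0.126 CPM in the RS libraries. In RS replicate 1 the level of 0 allows up to 0.166 CPM, the worth of 3 counts. Summed over the libraries of a group, 612 counts stood against 2 counts, a ratio of 307 with a 95% counting interval from 84.7 to 2540. The fitted log2 fold change was 8.09 (SE 0.443, edgeR adjusted p = 0.000376), and it ran from 7.07 to 11.29 over the 10 alternative analyses. Cd68 (ENSMUSG00000018774, chromosome 11 from 69664213 to 69666153), a heavily glycosylated protein of the lysosomal membrane, was at 63.0 and 56.5 CPM against 7.78 and 7.13 CPM. Replicates lay close together in both groups, and its log2 fold change was 3.0 (SE 0.121, edgeR adjusted p = 0.000135).

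The genes of lipid handling differed least. Apoe (ENSMUSG00000002985, chromosome 7 from 19696109 to 19699188), the main lipid carrier of the brain, was at 3111 and 2370 CPM in the PTS + RS libraries and at 1224 and 1362 CPM in the RS libraries. The groups did not overlap and the log2 fold change was 1.08 (SE 0.151, edgeR adjusted p = 0.0118), close to the fold limit. It was 0.87 without PTS + RS replicate 1, under the fold limit, and 1.00 without RS replicate 1 (edgeR adjusted p = 0.0708). Lpl (ENSMUSG00000015568, chromosome 8 from 68880491 to 68907448), which releases fatty acids from triglycerides, was at 86.4 and 87.0 CPM against 39.0 and 36.0 CPM. The replicates were almost equal and the groups separate, and the log2 fold change was 1.21 (SE 0.0843, edgeR adjusted p = 0.000809). Fabp5 (ENSMUSG00000027533, chromosome 3 from 10012548 to 10016607), an intracellular carrier of fatty acids, was at 64.6 and 68.3 CPM against 55.8 and 55.7 CPM. The groups did not overlap, but the log2 fold change of 0.25 (SE 0.0806, edgeR adjusted p = 0.163) was not past the threshold. Near-identical processed copies of Fabp5 exist in the genome, and how reads that match several of them were assigned is not given in the sources used here.

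The count of 9 upregulated genes held in DESeq2 and in limma-voom, and 8 or 9 were upregulated with a library left out. When all 8 libraries shared a single estimate of the spread, 0 of the 10 genes were past the threshold in edgeR, with adjusted p between 0.108 and 0.932. That fit had a single mean per group. The cortex- and amygdala-labelled libraries of RGFP109, and those of vehicle, thus counted as replicates, and the differences between them entered the shared spread. Log2 fold changes ran from 0.23 to 8.07 in that fit. There 8 of the 10 genes had an unadjusted p under 0.05 in edgeR, against 1441 of the 18466 tested genes. The common coefficient of variation was 11.4% between replicates of the PTS + RS and RS groups and 32.1% between the libraries of the RGFP109 and vehicle groups.

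Levels of different genes were compared per length, as the FPKM that the authors deposited. Apoe was highest of the 10 in all 8 libraries, at 1441 and 1103 FPKM in the PTS + RS libraries and at 569 and 635 FPKM in the RS libraries. Spp1 was second in both PTS + RS libraries, at 397 and 312 FPKM, followed by Cd68 at 49.7 and 44.7 FPKM. In the RS libraries Fabp5 was second, at 15.6 and 15.5 FPKM, ahead of Spp1 (8.42 and 3.24 FPKM) and Cd68 (6.16 and 5.65 FPKM), whose order differed between those libraries. Itgax was last in both PTS + RS libraries, at 2.11 and 1.13 FPKM, below Igf1 at 2.90 and 2.07 FPKM.

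Genes of microglia and macrophage content, 12 genes such as the growth factor receptor gene Csf1r and the complement genes C1qa to C1qc, were upregulated with stroke in 12 of 12 cases, and their median log2 fold change was 2.47. The highest were Ly86, a partner of the receptor Cd180, at 3.26 (SE 0.166, edgeR adjusted p = 0.000376) and Fcer1g at 3.03 (SE 0.163, edgeR adjusted p = 0.000376), and Csf1r was lowest at 1.69 (SE 0.134, edgeR adjusted p = 0.00135). Against this median, 6 of the disease-associated genes lay higher, Cst7 by 5.62, Clec7a by 3.49, Spp1 by 3.43, Itgax by 1.97, Gpnmb by 1.91 and Cd68 by 0.53 on the log2 scale. The other 4 lay below it, with differences of -0.97 for Igf1, -1.27 for Lpl, -1.39 for Apoe and -2.22 for Fabp5. These differences are descriptions without a test. The choice of reference matters: against the median of the homeostatic microglia genes, 1.28, Igf1 lay above, and Lpl, Apoe and Fabp5 still lay below. As an index of content, the geometric mean CPM of the 12 genes was 92.7 and 78.0 in the PTS + RS libraries and 16.9 and 14.4 in the RS libraries. Whether the 12 genes also change per cell was not tested, so the index is not a count of cells. Apoe, Igf1, Lpl and Fabp5 are also made by other cells, whose part in the values per index was not tested. Per unit of this index, Spp1 was at 7.13 and 6.62 with stroke and at 0.829 and 0.372 without, and Cd68 was at 0.68 and 0.724 against 0.462 and 0.494. The order was the opposite for Apoe, at 33.5 and 30.4 against 72.7 and 94.5, for Lpl, at 0.932 and 1.12 against 2.32 and 2.5, and for Fabp5, at 0.696 and 0.875 against 3.31 and 3.86. Igf1 was at 0.313 and 0.264 against 0.537 and 0.582, so its libraries were also lower per unit of the index with stroke.

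**Figure D2:**
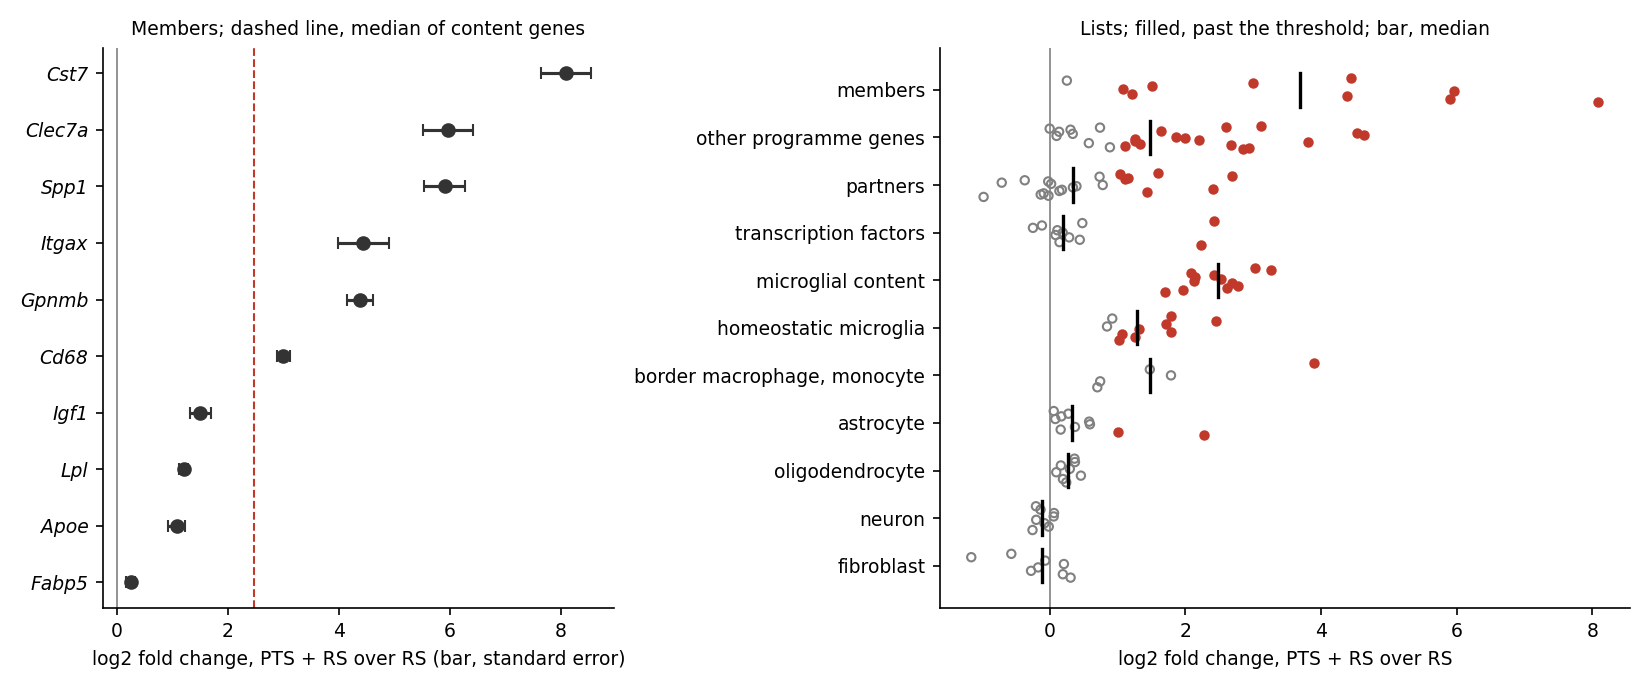
Log2 fold changes of PTS + RS over RS. On the left, points are the fitted values of the 10 genes with their standard errors as bars, and the dashed line is the median of the 12 microglial content genes at 2.47, with 6 genes to its right and 4 to its left. On the right, each point is a tested gene of a list, filled when past the threshold, and the black bars are the medians, which among the lists drawn (choroid plexus and region markers are not) run from 3.69 for the 10 genes (members) to -0.12 for the meningeal fibroblast markers.

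Of 24 other genes of the same programme, 16 were upregulated and 0 downregulated with stroke, and the list median on the log2 scale was 1.48. Lyz2, which encodes lysozyme, was at 239 and 151 CPM against 10.2 and 5.36 CPM, and Lilrb4a, which encodes an inhibitory receptor, at 9.11 and 6.10 CPM against 0.386 and 0.252 CPM. Their log2 fold changes were 4.63 (SE 0.317, edgeR adjusted p = 0.000757) and 4.53 (SE 0.389, edgeR adjusted p = 0.00171). Trem2 was at 76.4 and 59.5 CPM against 10.5 and 8.33 CPM, with a log2 fold change of 2.84 (SE 0.17, edgeR adjusted p = 0.000483). The adhesion molecule gene Cadm1 had the lowest value of the list, -0.0009 on the log2 scale.

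Receptors, carriers, substrates and partners of the 10 gene products made a list of 22 genes, of which 21 were tested, 7 were upregulated and 0 were downregulated (median 0.34). The highest were Itgb2, the beta subunit that pairs with CD11c, with a log2 fold change of 2.68 (SE 0.138, edgeR adjusted p = 0.000376), and Cd44, a receptor of osteopontin, with 2.41 (SE 0.314, edgeR adjusted p = 0.00898). Of 12 transcription factors linked to the programme, 11 were tested and 2 were upregulated, Runx1 (log2 fold change 2.43, SE 0.371, edgeR adjusted p = 0.0173) and Spi1, which encodes PU.1 (2.23, SE 0.311, edgeR adjusted p = 0.012). The median of the 11 factors was 0.19, and the lipid sensor gene Nr1h3 had the lowest log2 fold change, at -0.25.

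Homeostatic microglia genes, which are lowered in the textbook disease-associated state, were higher in the PTS + RS group as well, and 8 of 10 were upregulated, the list median being 1.28 on the log2 scale. Fcrls was at 127 and 110 CPM against 23.9 and 19.4 CPM (log2 fold change 2.45, SE 0.127, edgeR adjusted p = 0.000376), and Siglech had the smallest value, 0.84, under the fold limit. Per gene these values were lower than the content median of 2.47 in all 10. Other cell types were checked by their markers. Of 10 border macrophage and monocyte markers, 5 were tested and 1 was upregulated, Ms4a7 at 3.89 on the log2 scale (SE 0.631, edgeR adjusted p = 0.0217). Pf4 was at 1.79 (SE 0.59, edgeR adjusted p = 0.176), and the lowest was the mannose receptor gene Mrc1 at 0.70 (SE 0.471, edgeR adjusted p = 0.493). The summed level of this list was 35.7 and 17.4 CPM with stroke and 11.9 and 10.2 CPM without, and its part in the values of the 10 genes was not tested. None of 8 neutrophil markers had enough counts to be tested, their summed level was at most 0.701 CPM in these 4 libraries, and 3 to 7 of the 8 genes were at 0. Of 10 astrocyte markers, which matter for Apoe, 2 were upregulated, Gfap (log2 fold change 2.27, SE 0.171, edgeR adjusted p = 0.00112) and Aqp4 (1.01, SE 0.145, edgeR adjusted p = 0.0137), with a median of 0.32. The astrocyte list summed to 8057 and 6853 CPM against 4711 and 4744 CPM, and its part in the difference of Apoe was not tested. Of 8 markers each of oligodendrocytes, neurons, meningeal fibroblasts and choroid plexus, 0 were past the threshold in edgeR, with medians of 0.27, -0.11, -0.12 and -1.81. At an unadjusted p under 0.05 these lists had 3, 1, 0 and 3 genes.

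**Figure D3:**
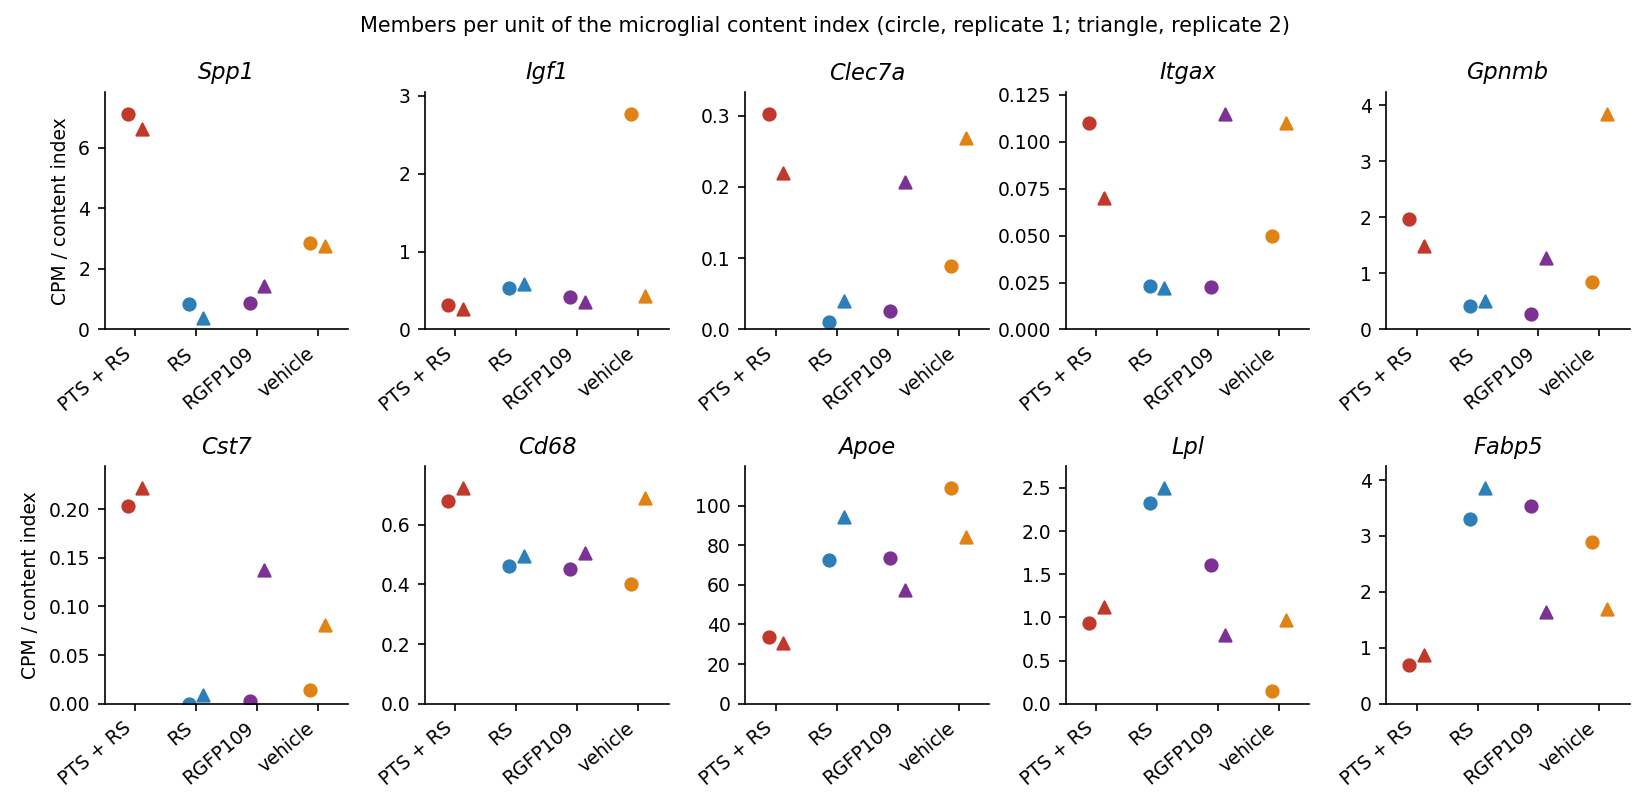
Level of each of the 10 genes per unit of the microglial content index (CPM divided by the geometric mean CPM of 12 microglial content genes in the same library), on linear axes from 0. Circles are replicate 1 and triangles are replicate 2. The PTS + RS libraries (red) lie above the RS libraries (blue) for Spp1, Clec7a, Itgax, Gpnmb, Cst7 and Cd68 and below them for Igf1, Apoe, Lpl and Fabp5.

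The effect of HDAC inhibition in mice with stroke and restraint stress was asked by comparing RGFP109 with vehicle. No gene of the 10 was past the threshold, nor was any of the 17565 tested genes (0.0% upregulated or downregulated), by edgeR, DESeq2 or limma-voom. At an unadjusted p under 0.05 edgeR gave 206 genes (88 higher and 118 lower, 1.17% of those tested), DESeq2 433 and limma-voom 141. In 0 of the 10 genes did both RGFP109 libraries lie above both vehicle libraries, against 12.8% of all tested genes, and in 1, Igf1, both lay below, against 13.8%. The median log2 fold change of the 10 genes was -0.43, against -0.0161 over all tested genes. Since replicate 1 and replicate 2 carry different tissue labels, ratios of a single RGFP109 library to the single vehicle library of the same number are also given, with 95% intervals that cover counting error only. These ratios have no replicate check. The replicate 1 libraries also differed in choroid plexus markers, at a summed 1520 CPM with RGFP109 and 9.61 CPM with vehicle, and in olfactory bulb markers, at 12.4 and 1230 CPM, and the part of either in the ratios was not tested.

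Spp1 was at 17.3 and 49.9 CPM in RGFP109 replicates 1 and 2 and at 45.4 and 108 CPM in the vehicle libraries. It was lower with RGFP109 in both numbers, with ratios of 0.38 (0.33 to 0.436) and 0.463 (0.429 to 0.499), while the groups overlapped. The fitted log2 fold change was -1.19 (SE 0.647, unadjusted p = 0.128, edgeR). Gpnmb was at 5.33 and 44.7 CPM against 13.6 and 150 CPM, again lower in both numbers, with ratios of 0.392 (0.302 to 0.505) and 0.298 (0.276 to 0.32). Its fitted log2 fold change was -1.71 with a standard error of 1.39, and replicate 2 of either treatment was far above replicate 1. Igf1 was at 8.37 and 12.3 CPM against 44.0 and 16.8 CPM, and both RGFP109 libraries were lower than both vehicle libraries. In the fit without a replicate term it was the only one of the 10 genes with an unadjusted p under 0.05 (log2 fold change -1.55, standard error 0.52, edgeR unadjusted p = 0.032 and adjusted p = 1.0). Vehicle replicate 1, with the olfactory bulb markers, held the highest level of Igf1 in all 8 libraries, and without that library the log2 fold change was -0.70. Vehicle then rests on the amygdala-labelled library alone while RGFP109 keeps a library of each label. The part of the olfactory bulb markers and of the label in the level of Igf1 was not tested.

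Clec7a was at 0.507 and 7.20 CPM with RGFP109 and at 1.42 and 10.5 CPM with vehicle, with ratios of 0.357 (0.139 to 0.816) and 0.686 (0.551 to 0.852). Apoe was at 1464 and 1994 CPM against 1738 and 3282 CPM, with ratios of 0.843 (0.828 to 0.857) and 0.607 (0.6 to 0.615). Both genes were lower with RGFP109 within each number and overlapped between the treatments. Itgax was at 0.444 and 4.02 CPM against 0.796 and 4.30 CPM, and both of its intervals, 0.19 to 1.48 and 0.681 to 1.29, included a ratio of 1. Fitted log2 fold changes were -0.61 for Clec7a, -0.54 for Apoe and -0.17 for Itgax, with standard errors of 1.37, 0.397 and 1.21.

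The remaining 4 genes differed in opposite directions in replicate 1 and replicate 2. Lpl was at 32.0 and 27.8 CPM with RGFP109 and at 2.39 and 37.95 CPM with vehicle, so that the ratio was 13.4 (9.78 to 18.8) in replicate 1 and 0.733 (0.656 to 0.819) in replicate 2. The fitted log2 fold change was 0.57 (SE 1.13) and turned to -0.35 without vehicle replicate 1. Without vehicle replicate 2, when vehicle rested on replicate 1 alone, Lpl was past the threshold at 3.65 (edgeR adjusted p = 0.0371). Cd68 was at 8.94 and 17.6 CPM against 6.37 and 26.9 CPM, higher with RGFP109 in replicate 1 and lower in replicate 2. Fabp5 was at 70.1 and 57.2 CPM against 46.2 and 66.3 CPM, with the same pattern. Cst7 was at 0.0634 and 4.77 CPM against 0.228 and 3.15 CPM, and the ratio of 0.279 in replicate 1 rests on 1 and 4 counts, with an interval from 0.00566 to 2.82. The fitted log2 fold changes of Cd68, Fabp5 and Cst7 were -0.32, 0.18 and 0.53, each within its standard error of 0.738, 0.244 and 1.74. Without vehicle replicate 1 all 10 genes were below 0 on the log2 scale, from -0.0656 for Fabp5 to -2.58 for Gpnmb, with Spp1 at -1.68 and Apoe at -0.93. In that fit vehicle rests on the amygdala-labelled library alone while RGFP109 keeps a library of each label, and the part of the label was not tested. Cst7 was below 0 there, while its ratio within replicate 2 was 1.51 (1.08 to 2.12). The replicate 2 ratios of the other genes were below 1. In this experiment the replicate number also marks the tissue label, and the fit without a replicate term counts the difference between tissue labels as spread. With the replicate number as a term (replicate block), 3 of the 10 genes had an unadjusted p under 0.05 in edgeR, against 1.48% of all tested genes. These were Gpnmb (log2 fold change -1.56, SE 0.211, edgeR unadjusted p = 0.00102), Spp1 (-1.25, SE 0.194, edgeR unadjusted p = 0.00184) and Igf1 (-1.41, SE 0.529, edgeR unadjusted p = 0.0484). The adjusted p of each was 1.0 in that fit, and 0 of all tested genes were past the threshold.

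**Figure D4:**
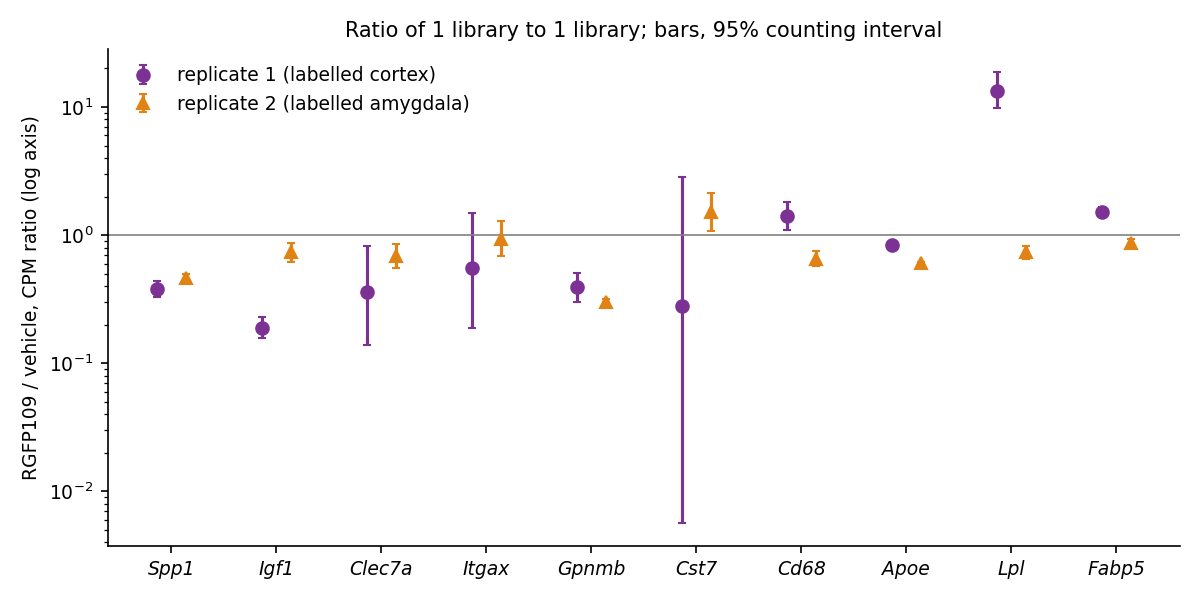
Ratio of the level with RGFP109 to that with vehicle for each of the 10 genes, on a log axis, in replicate 1 (circles, labelled cortex) and replicate 2 (triangles, labelled amygdala). Each point compares 1 library with 1 library, and bars are 95% counting intervals. Spp1 and Gpnmb lie between 0.298 and 0.463 in both, and Lpl lies at 13.4 in replicate 1 and at 0.733 in replicate 2.

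Of the other lists, the 24 further programme genes had 0 past the threshold and a median log2 fold change of -0.26 between RGFP109 and vehicle, and 0 had an unadjusted p under 0.05 in edgeR. The 12 microglial content genes were at a median of -0.02, with values between -0.26 and 0.32. Their index was 19.8 and 34.8 with RGFP109 and 15.9 and 39.0 with vehicle. Per unit of the index, Spp1 was at 0.87 and 1.43 with RGFP109 and at 2.85 and 2.76 with vehicle, Gpnmb at 0.269 and 1.28 against 0.854 and 3.85, and Apoe at 73.8 and 57.2 against 109 and 84.1. For Spp1, Apoe and Igf1 (0.422 and 0.354 against 2.77 and 0.43) both RGFP109 libraries then lay below both vehicle libraries, a description without a test. The share of all genes that separate on this measure was not computed.

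The labels also allow the libraries labelled amygdala (replicate 2) to be compared with those labelled cortex (replicate 1) in the same 4 libraries, over both treatments. In 7 of the 10 genes both amygdala-labelled libraries lay above both cortex-labelled libraries, against 21.6% of all tested genes. These were Cst7, Gpnmb, Clec7a, Itgax, Cd68, Spp1 and Apoe, with log2 fold changes of 4.67, 3.36, 3.17, 2.72, 1.54, 1.33 and 0.72. None was past the threshold in edgeR (adjusted p between 0.206 and 0.5), nor was any tested gene (0.0%), although 5 of the 10 genes and 1970 of the 17565 tested genes (11.2%) had an unadjusted p under 0.05. DESeq2 called 349 genes (1.99%), among them Gpnmb, Clec7a, Cd68, Cst7 and Itgax, all higher, and limma-voom called 0. Without the library that carries olfactory bulb markers, vehicle replicate 1, edgeR called 1141 genes (6.13%) with 6 of the 10 higher. Without RGFP109 replicate 1 it called 2512 (13.4%) with 6 of the 10 higher and Igf1 lower.

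Cst7 showed the largest such difference, with 1 and 4 counts in the cortex-labelled libraries and 102 and 58 counts in the amygdala-labelled libraries. Gpnmb in vehicle replicate 2, at 150 CPM, lay between the PTS + RS libraries, and Apoe there, at 3282 CPM, lay above both of them. The cortex-labelled RGFP109 and vehicle libraries, although taken from mice with stroke, held Cst7, Clec7a, Itgax, Gpnmb and Cd68 well below the damaged cortex of the PTS + RS group, with Cd68 at 8.94 and 6.37 CPM against 63.0 and 56.5 CPM and Cst7 at 0.0634 and 0.228 CPM against 18.8 and 17.4 CPM. These values come from separate experiments, each normalized on its own, and no test was made across them. The microglial content genes were all higher in the amygdala-labelled libraries, with a median of 1.06 and 0 of 12 past the threshold in edgeR (10 at an unadjusted p under 0.05), and the 8 striatum markers were at a median of 3.20. The 8 oligodendrocyte markers were all higher as well, with a median of 0.55 (7 at an unadjusted p under 0.05 in edgeR), and so were the 7 border macrophage and monocyte markers tested, with a median of 0.85 (2 at an unadjusted p under 0.05), and 0 of either list were past the threshold. The part of these cell types in the levels of the 10 genes was not tested. Whether the region that was dissected has a part in these levels was not tested. Fabp5 and Lpl were lower in the amygdala-labelled library with RGFP109 and higher with vehicle. Igf1 had the opposite order in vehicle, at 44.0 CPM in replicate 1 and 16.8 CPM in replicate 2, and its log2 fold change was -0.85 with all 4 libraries and 0.81 without vehicle replicate 1.

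Over all 8 libraries, the genes whose profile was nearest to the median profile of the 10 genes were sought among 16013 genes with a mean of at least 1 CPM, by the root mean square difference of log2 CPM after each gene was centred on its own mean. The nearest 6 outside the set were C3ar1 (0.209), the receptor for complement C3a, Mpeg1 (0.246), a pore-forming protein of macrophages, Trem2 (0.288), Cd52 (0.293), Fcer1g (0.299), the common Fc receptor gamma chain, and Slc15a3 (0.306), a lysosomal peptide transporter. The median over all genes compared was 1.44. C3ar1 was at 30.5 and 20.6 CPM in the PTS + RS libraries, at 1.88 and 1.64 CPM in the RS libraries, at 2.41 and 8.09 CPM with RGFP109 and at 2.50 and 9.08 CPM with vehicle. Its level was highest in the PTS + RS libraries, lowest in the RS libraries and the cortex-labelled libraries of the RGFP109 experiment, and between these in the amygdala-labelled libraries. Of the 10 genes themselves, Cd68 (0.304) and Itgax (0.511) were nearest to the median profile and Lpl (1.43) and Cst7 (1.53) were farthest. Each experiment was normalized on its own and the amygdala-labelled libraries share a region label, so these values describe likeness of profile and carry no test.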

How the data were processed

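RNA-seq was available for 8 libraries. Per the paper's methods and the labels, the authors aligned reads to GRCm38 with STAR (version 2.4.0) and counted reads per gene with HTSeq (version 0.6.1), and limma is named for their statistics. The deposited counts are not normalized, and the deposited normalized signal holds counts divided by a size factor per library. The deposited FPKM are the counts scaled to gene length and to a library size that does not equal the total of the counts. How that size was obtained is not given in the sources used here. The labels name a directional library kit and the methods another kit, and the strand setting of counting is not given in the sources used here. The authors' own fold changes and p-values were not used, and 0 columns were mapped to no sample.

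Counts were tested with edgeR (version 4.0.16, quasi-likelihood fit, TMM scaling, filterByExpr) in R (version 4.3.3), separately for PTS + RS against RS, for RGFP109 against vehicle and for the amygdala-labelled against the cortex-labelled libraries of the latter experiment. A fit used only the 4 libraries compared, and p-values were adjusted over all tested genes (Benjamini-Hochberg). CPM used the library size normalized within each experiment, and log2 CPM for the comparison of profiles a prior count of 2. Alternatives were DESeq2 (version 1.42.0), limma-voom (limma version 3.58.1), RLE scaling, no filter on low counts, all 8 libraries in 1 fit, a replicate or treatment term, and leaving out each library. Only the PTS + RS against RS fit was checked on simulated counts, drawn with the same dispersion for every gene, and the other comparisons were not simulated. Intervals of ratios are 95% exact binomial intervals of counts and cover counting error only, as does the floor of 3 counts. Tables and figures were made in Python (version 3.11.15, with pandas 2.3.3, SciPy 1.17.1 and matplotlib 3.10.9).

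The 10 genes and the marker and pathway lists were chosen with earlier results of these data known. All 10 genes were named, with the 2 highest and the lowest of each further list by log2 fold change of PTS + RS against RS (for region and choroid plexus lists, the 2 with the highest CPM) and the 6 genes nearest in profile. A gene that this rule names is not reported here. The depth was between 15902013 and 21712033 counts on genes. Replicate numbers could pair libraries, but the correlation of deviations of same-numbered libraries was 0.035 for PTS + RS and RS and 0.299 for RGFP109 and vehicle with only 2 pairs each, and no source says that a number marks a shared animal or batch. In the RGFP109 experiment the number marks the tissue label. The main fits have no such term, and the fit with it is given beside the result.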

Additional observations from a re-analysis of the deposited data

Results flagged for a closer look

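For 4 of the 10 genes the level with RGFP109 relative to vehicle was on opposite sides of 1 in replicate 1 (labelled cortex) and replicate 2 (labelled amygdala). The log2 ratio was 3.745 in replicate 1 and -0.449 in replicate 2 for Lpl, 0.601 and -0.212 for Fabp5, and 0.489 and -0.611 for Cd68. For Cst7 it was -1.843 and 0.596, and its value in replicate 1 rests on 1 and 4 counts. Each value compares 1 library with 1 library, and the difference between the labelled tissues was not tested. The vehicle library of replicate 1 is the one with olfactory bulb markers, at a summed 1230 CPM. Among all 8 libraries it held the lowest Lpl, Fabp5 and Cd68 (2.39, 46.2 and 6.37 CPM), but not the lowest Cst7. The part of that library in the opposite directions was not tested.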

How the results depend on the processing

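All 10 genes were above 0 in log2 fold change between PTS + RS and RS in every alternative. The number past the threshold was 9 in each alternative other than leaving out a library (8 to 9) and fitting all 8 libraries together, which gave 0. In that joint fit the differently labelled libraries of a treatment counted as replicates. Over all tested genes PTS + RS against RS gave 389 genes, 759 without a filter on low counts, 0 with all 8 libraries together and 323 to 740 with a library left out. Between RGFP109 and vehicle, leaving out a library gave 0 to 93 genes, with 0 to 1 of the 10. Between the amygdala- and cortex-labelled libraries, against 0, DESeq2 gave 349 (5 of the 10), no filter 13, all 8 libraries together 168 (4 of the 10) and leaving out a library 0 to 2512 (0 to 7 of the 10). The cause of these changes was not tested. With the replicate number as a term (replicate block), 475 genes (443 higher and 32 lower) and 9 of the 10 were past the threshold between PTS + RS and RS, and 0 between RGFP109 and vehicle, so the block changed no call among the 10 genes (3 of the 10, against 1 without it, had an unadjusted p under 0.05 between RGFP109 and vehicle). The numbers were not shown to pair the libraries.

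Directions that turned with a library left out were, between PTS + RS and RS, those of Cadm1 (-0.0815 to 0.071) and Mrc1 (-0.33 to 1.29). Between RGFP109 and vehicle they were those of Cst7 (-4.59 to 3.41, and -0.18 by limma-voom), Gpnmb (-3.94 to 0.90), Lpl (-0.35 to 3.65), Clec7a (-3.54 to 1.47), Apoe (-0.93 to 0.0034), Cd68 (-1.02 to 1.07), Fabp5 (-0.0656 to 0.47) and Itgax (-2.50 to 1.52). Between the labelled tissues they were those of Igf1 (-1.59 to 0.81) and Fabp5 (-0.17 to 0.42). With a library left out, a lone library is assumed to vary like the other group. With 2 libraries a group, an exact permutation test of 1 gene cannot go below p = 0.333. At these depths 3 counts, the limit that a count of 0 allows, stood for 0.14 to 0.19 CPM.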

Other observations

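Beside the columns for all genes, the normalized signal deposited for the RGFP109 experiment holds a separate block of 38 genes, among them 8 of the 10 genes (all but Clec7a and Itgax). For all 38 genes the block's column for vehicle replicate 2 held the same values as vehicle replicate 1, and for 0 of 38 did it equal the all-gene column of vehicle replicate 2 (relative tolerance 1e-06). Gpnmb was at 244.595 in both vehicle columns of the block and at 2726.59 in the all-gene column of vehicle replicate 2, and Spp1 was at 817.706 and 1953.48. The block was not used for any value of the 10 genes given here.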
